A study of Mus musculus with 9 samples.

Results

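The expression of 10 integrin subunit genes was examined in CD11b+ cells of the mouse liver after acetaminophen (APAP): Itgam, Itgax, Itgal, Itgb2, Itgb1, Itga4, Itgb7, Itgav, Itgb5 and Itga6. They were chosen by name, as Itgam (which encodes CD11b, the surface protein by which the cells were selected), its relatives on leukocytes and the beta chains they pair with. They are 10 of the 45777 genes in the tables, and all 10 passed the filter that left 13820 genes to test. Bulk RNA sequencing was made of 9 samples in 3 groups of 3. Every group had received APAP by the intraperitoneal route to cause acute liver failure, and all livers were taken 48 h after it. The PBS group received saline alone as treatment. The HEK-EV group received intravenous extracellular vesicles called SIRP-EV in the labels, made from HEK cells, which derive from human embryonic kidney, 8 h after APAP. The MSC-EV group received SIRP-EV made from MSC, at the same time and by the same route. SIRP and MSC are not spelled out in the labels, and strain, sex, age and dose are not given in the sources used here. No group without APAP and no vesicle without SIRP was analysed here. No label says that replicates came from separate animals, so p-values measure the spread between these samples.

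Integrins are receptors made of an alpha and a beta chain that tie a cell to matrix or to other cells. On myeloid cells the beta2 chain (Itgb2, CD18) pairs with alphaM (Itgam, giving Mac-1 or complement receptor 3), with alphaX (Itgax, CD11c) or with alphaL (Itgal, giving LFA-1), and these receptors bind ICAMs, fibrinogen and complement-coated particles. The beta1 chain (Itgb1) pairs with alpha4 (Itga4) to bind VCAM-1 and fibronectin, and with alpha6 (Itga6) to bind laminin, while beta7 (Itgb7) also pairs with alpha4, and alphaV (Itgav) pairs with beta5 (Itgb5) to bind vitronectin. Leukocyte integrins are held inactive until signals from inside the cell (inside-out activation) change their shape, and once bound they signal through kinases and the actin skeleton (outside-in signalling).

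Itgam and Itgax lie next to each other on chromosome 7 and share the beta2 chain. The MSC-EV values lay below the PBS values for Itgam and overlapped them for Itgax, but lay below the HEK-EV values for both. The stretches before their annotated starts are shown together with that of Itgb1. Each run is the 250 bases before the start, from the RefSeq table of GRCm38.p6, with matches to the motifs searched in capitals. The motifs, searched on both strands, were GAGGAA (a core of sites bound by PU.1, the myeloid factor encoded by Spi1), TGTGGT (RUNX factors) and GGGCGG (the GC box), which do not overlap each other in these runs.
Itgam, chr7:128062390-128062639, plus strand: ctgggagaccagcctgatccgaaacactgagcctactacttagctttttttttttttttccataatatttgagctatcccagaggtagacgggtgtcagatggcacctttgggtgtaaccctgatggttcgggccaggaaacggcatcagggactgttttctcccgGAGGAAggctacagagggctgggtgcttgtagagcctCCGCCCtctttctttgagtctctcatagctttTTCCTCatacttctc
Itgax, chr7:128129300-128129549, plus strand: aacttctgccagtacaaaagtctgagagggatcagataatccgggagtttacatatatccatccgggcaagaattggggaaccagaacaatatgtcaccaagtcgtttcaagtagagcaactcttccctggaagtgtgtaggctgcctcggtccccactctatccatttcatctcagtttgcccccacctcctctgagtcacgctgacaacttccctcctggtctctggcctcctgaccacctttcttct
Itgb1, chr8:128685404-128685653, plus strand: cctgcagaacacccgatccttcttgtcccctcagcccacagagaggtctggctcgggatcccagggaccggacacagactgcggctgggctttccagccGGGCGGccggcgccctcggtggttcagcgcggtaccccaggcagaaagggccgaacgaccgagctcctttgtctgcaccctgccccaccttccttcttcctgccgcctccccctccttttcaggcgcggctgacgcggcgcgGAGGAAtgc
The Itgam stretch held 2 matches to GAGGAA, of which one lay 84 to 79 bases before the start on the plus strand and the other 15 to 10 bases before it on the minus strand, and 1 GC box. No match to any of these motifs lay in the Itgax window, whose last bases fall inside the span that the files give for the gene. The Itgb1 window held 1 GAGGAA and 1 GC box. Over the 32851 promoters of the same length in the table, 23.3% held GAGGAA, 14.0% TGTGGT and 32.7% GGGCGG. Of the 10 genes, 7 had an entry. Among the others of these 7, Itgav held 2 matches to GAGGAA, Itga4 held 1 RUNX motif and 1 GC box, Itgb5 held 3 GC boxes and Itgb7 held none of the 3 motifs, where the Itgav and Itgb7 windows lie wholly inside the spans that the files give for these genes. Itgal, Itgb2 and Itga6 are named only. A match is a description of these letters and not a bound site.

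The tables held no read counts, so depth in reads is unknown. Relative depth was read from coverage divided by FPKM, as the most frequent value over genes with an FPKM above 1. It was 5.28 to 6.32 under PBS, 6.25 to 6.47 under HEK-EV and 6.59 to 6.85 under MSC-EV. Only 31.7% to 32.3% of those genes lay at or very near that value in a sample. Pairs of samples within a group had correlations of 0.980 to 0.993 across genes. Ptprc, which encodes the pan-leukocyte protein CD45, was at 515 to 647 TPM (transcripts per 1000000) under PBS, 575 to 669 under HEK-EV and 418 to 428 under MSC-EV. Its difference of log2(TPM + 1), tested with limma across all 13820 genes, was -0.46 for MSC-EV against PBS (adjusted p = 0.0271) and -0.53 against HEK-EV (adjusted p = 0.0207). These calls held under 10 and 14 of the 20 alternative settings, with an adjusted p of up to 0.149 and 0.113. The whole list of 8 general leukocyte and myeloid markers, all of them detected, summed to 25910 to 27860, 23140 to 26420 and 22470 to 28290 TPM across PBS, HEK-EV and MSC-EV, in that order, of which Lyz2 alone made up 13329 to 18741 TPM. The markers did not all follow Ptprc, since Cd68 was at 1809 to 2204 TPM under PBS, 1906 to 2000 under HEK-EV and 2366 to 2522 under MSC-EV. For MSC-EV against HEK-EV 1 of the 8 was called higher and 1 lower, where 1.51% and 4.40% of all genes were. For MSC-EV against PBS 0 were called higher and 1 lower, where 1.86% and 3.25% of all genes were. Pancreatic acinar transcripts stood out in 4 libraries, HEK-EV replicates 1 and 2 and MSC-EV replicates 1 and 3, where 21 acinar genes summed to 42.9 to 3532 TPM against 13.3 to 15.4 TPM in the other 5. T cell, NK cell and B cell markers were low everywhere, with sums of at most 8.76, 19.3 and 27.7 TPM, and the 6 eosinophil and basophil markers summed to at most 17.99 TPM, with Epx and Prg2 listed at 0 in every sample.

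All of the subunits were abundant, from the 71.6th percentile of the genes tested for Itga6 to the 98.5th for Itgb2. By mean TPM over the 9 samples, which is per transcript length and so can be compared between genes, Itgb2 came first at 752, followed by Itgal at 351, Itgam at 310, Itgb1 at 301 and Itgb5 at 282. Itga4 followed at 148, then Itgb7 at 129, Itgax at 124, Itgav at 65.8 and Itga6 at 40.6. Itgb2 lay above Itgal in 9 of 9 samples, Itgb5 above Itga4 in 9, Itgax above Itgav in 9 and Itgav above Itga6 in 9. Some neighbours in this order were not separated beyond their spread, since Itgam lay above Itgb1 in 3 of 9 samples, Itgb1 above Itgb5 in 6 and Itgb7 above Itgax in 3. The order also differed by group, with Itgam above Itgb1 in PBS replicate 3 and HEK-EV replicates 2 and 3 and in no MSC-EV sample. In sum the 10 transcripts made up 2637 ± 153 TPM under PBS, 2786 ± 121 under HEK-EV and 2086 ± 151 under MSC-EV (SD, n = 3 each).

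**Figure D1:**
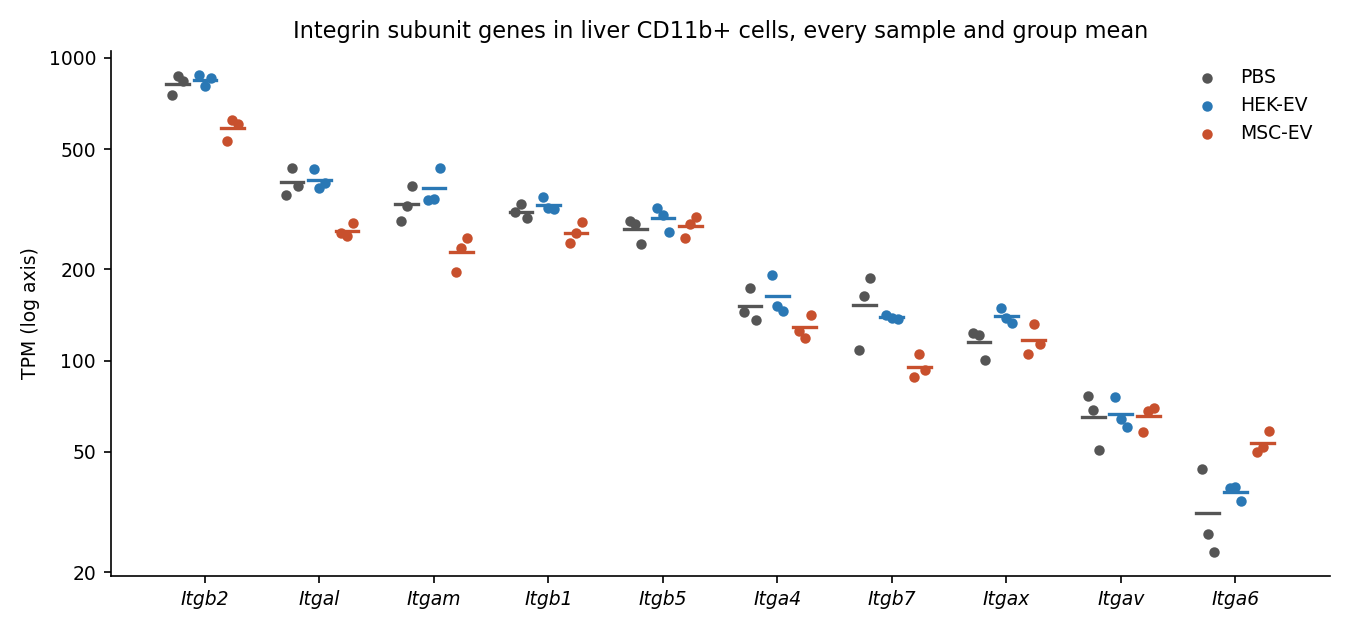
TPM of the 10 integrin subunit genes (x axis, by mean level) on a log axis, with a point for each sample and a line for each group mean, n = 3 per group. For Itgb2, Itgal, Itgam, Itgb1 and Itgb7 the 3 MSC-EV points lie under all PBS and HEK-EV points, and for Itga6 they lie above them.

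MSC-EV was set against PBS to ask what the MSC vesicles changed in these cells. Of the beta2 family 2 genes fell, Itgal by 1.44-fold and Itgb2 by 1.40-fold, and the laminin receptor chain Itga6 rose (1.74-fold). Itgam itself, at 1.44-fold lower, had an adjusted p of 0.0553 and did not pass. Itgax, Itgav and Itgb5 had log2 fold changes of 0.02 to 0.03. Against HEK-EV, which asks whether the source of the vesicles matters, Itgam (1.62-fold lower), Itgal (1.47-fold), Itgb2 (1.45-fold) and Itgb1 (1.24-fold) fell. No integrin gene passed between HEK-EV and PBS. The comparisons share samples, since the same 3 MSC-EV samples enter 2 of them.

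Itgb2 (gene ID 16414, chr10:77530329-77565708 in mm10) was at 752, 874 and 837 TPM under PBS (replicates 1 to 3, the order used throughout), 881, 806 and 858 under HEK-EV and 530, 624 and 603 under MSC-EV. The MSC-EV samples lay below every other sample and the PBS and HEK-EV samples overlapped. The log2 fold change was -0.49 against PBS (SE 0.0810, 95% interval -0.67 to -0.31, adjusted p = 0.0218) and -0.54 against HEK-EV (interval -0.72 to -0.35, adjusted p = 0.0205). Itgb2 encodes the beta chain that all of the beta2 receptors need.

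Itgal (16408, chr7:127296139-127335137), the alpha chain of LFA-1 by which leukocytes hold on to ICAM-bearing cells, followed the same order. It was at 354, 433 and 377 TPM under PBS, 431, 370.5 and 385 under HEK-EV and 264, 258 and 284 under MSC-EV. Again every MSC-EV value was under every other value. The log2 fold change was -0.52 against PBS (SE 0.0862, interval -0.72 to -0.33, adjusted p = 0.0217) and -0.55 against HEK-EV (interval -0.75 to -0.36, adjusted p = 0.0205).

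Itgam (16409, chr7:128062640-128118491) was at 289, 324 and 377 TPM under PBS, 339, 342 and 434 under HEK-EV and 196, 235 and 255 under MSC-EV. No MSC-EV value reached the lowest PBS value, and the PBS and HEK-EV values overlapped. Against HEK-EV the log2 fold change was -0.70 (SE 0.134, adjusted p = 0.0257). Against PBS it was -0.53 (interval -0.83 to -0.23, adjusted p = 0.0553). The cells were selected by the protein that Itgam encodes, so its level is measured in cells chosen on it. In bulk samples fewer cells of a type and less RNA per cell cannot be told apart, for this and for every other gene.

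Itgax (16411, chr7:128129526-128150657), the alpha chain of CD11c, which marks dendritic cells and many tissue macrophages, did not follow its neighbour. It was at 123, 121 and 100.1 TPM under PBS, 149, 139 and 133 under HEK-EV and 105, 132 and 114 under MSC-EV. The MSC-EV and PBS values overlapped, with a log2 fold change of 0.02 (interval -0.21 to 0.26, adjusted p = 0.918). The MSC-EV values were all under the HEK-EV values, with a log2 fold change of -0.26 (interval -0.50 to -0.03) that did not pass (adjusted p = 0.161). Only 11034 bases separate Itgax from the end of Itgam. Of the annotated protein-coding genes around these loci, Itgad, beyond Itgax, was at 1.40 to 1.99 TPM, and Trim72, before Itgam, was at 0.156 to 0.459 TPM and was not tested. Sephs2 and Zfp768, on either side of Itgal, had log2 fold changes of 0.03 and 0.05 for MSC-EV against PBS, and neither passed (adjusted p = 0.901 and 0.824).

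**Figure D2:**
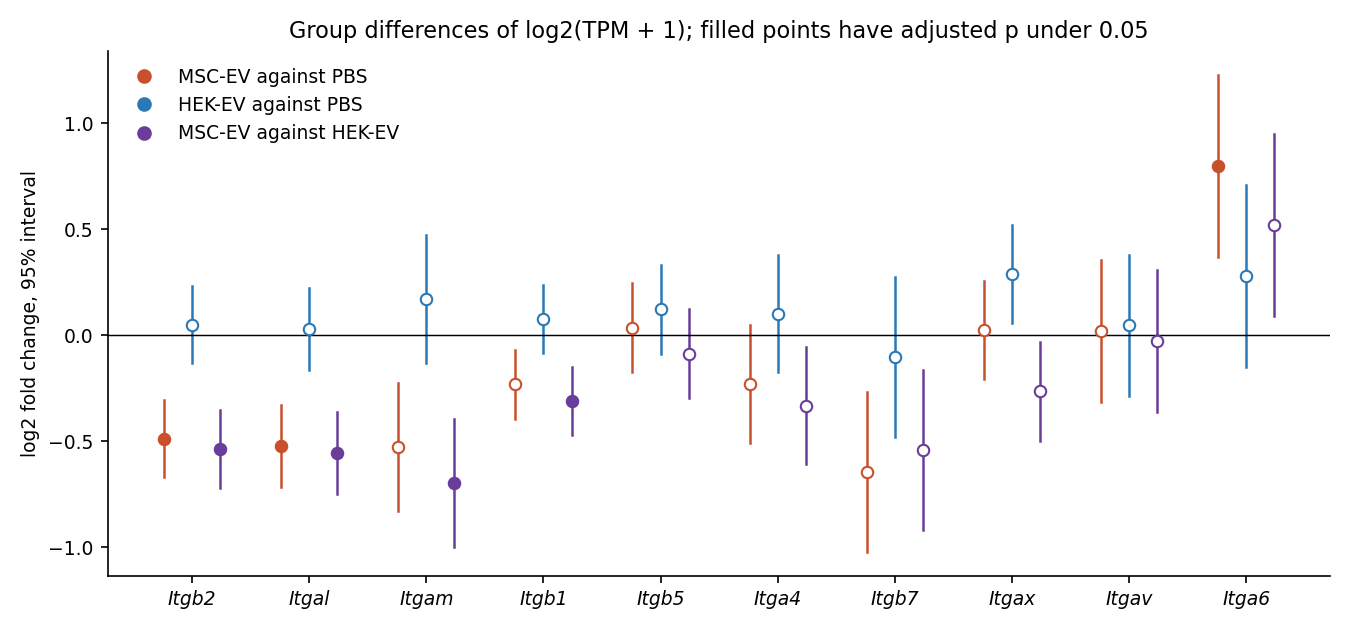
Log2 fold change of each gene (differences of log2(TPM + 1), x axis ordered by mean level) in the 3 comparisons, with the 95% interval from limma as a line, and filled points where the adjusted p was under 0.05. Itgb2 and Itgal are filled in both MSC-EV comparisons, Itgam and Itgb1 against HEK-EV only, Itga6 against PBS only, and no point is filled for HEK-EV against PBS.

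The chains of the beta2 receptors can be set against each other within a sample, where scaling has no part. The 3 alpha chain transcripts summed to 832 ± 59.1 TPM under PBS, 908 ± 51.5 under HEK-EV and 614 ± 44.8 under MSC-EV (SD, n = 3 each). Itgax made up 11.7% to 16.1% of this sum under PBS, 13.9% to 16.3% under HEK-EV and 17.4% to 21.1% under MSC-EV. The Itgam share was 36.9% to 44.1%, 36.9% to 45.6% and 34.8% to 39.1% in the same order, and the Itgal share 44.1% to 49.3%, 40.4% to 46.9% and 41.3% to 46.7%. So the Itgax share was higher in the MSC-EV samples without overlap, and the others overlapped.

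The Itgax to Itgb2 ratio was 0.164, 0.139 and 0.120 under PBS, 0.169, 0.172 and 0.155 under HEK-EV and 0.198, 0.212 and 0.188 under MSC-EV. It was 1.43-fold higher in the MSC-EV samples than in PBS and 1.21-fold higher than in HEK-EV, without overlap (exact permutation test, two-sided, p = 0.1 for each, the smallest that 3 against 3 can give). By contrast Itgam to Itgb2 averaged 0.402, 0.439 and 0.390 across PBS, HEK-EV and MSC-EV, in that order (exact p = 0.7 for MSC-EV against PBS). Itgal to Itgb2 averaged 0.472, 0.466 and 0.461 (exact p = 0.9). The ratio of Itgax to Itgam, added after the values had been seen, averaged 0.356, 0.383 and 0.514, and was 1.47-fold higher in MSC-EV than in PBS (exact p = 0.1). Over the 33 ratio comparisons made, 7 reached the smallest p, and no adjusted p was below 0.471, so none of the ratio differences passed. Itgam to Ptprc averaged 0.566, 0.610 and 0.539 (exact p = 0.6 for MSC-EV against PBS) and Itgb2 to Ptprc 1.41, 1.39 and 1.38 (exact p = 0.8).

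**Figure D3:**
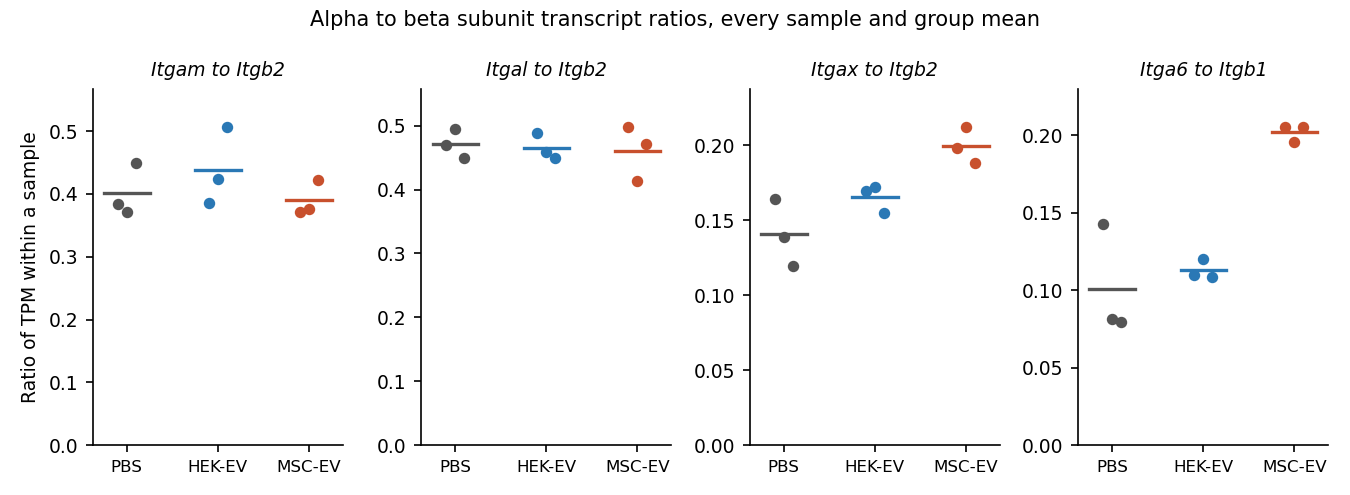
Ratio of TPM of an alpha to a beta subunit gene within a sample (y axis from 0), with a point for each sample and a line for each group mean, n = 3 per group. The groups overlap for Itgam to Itgb2 and Itgal to Itgb2, while the MSC-EV points lie above all others for Itgax to Itgb2 (0.188 to 0.212) and Itga6 to Itgb1 (0.196 to 0.205).

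Among the beta1 chains, Itgb1 (16412, chr8:128685654-128733579), the most widely used beta subunit, was at 309, 328 and 295 TPM under PBS, 347, 318 and 318 under HEK-EV and 244, 264 and 286 under MSC-EV. Its MSC-EV values lay below all others. The log2 fold change was -0.31 against HEK-EV (SE 0.0718, interval -0.47 to -0.15, adjusted p = 0.0402) and -0.23 against PBS (interval -0.39 to -0.07, adjusted p = 0.0910), which did not pass. Itga4 (16401, chr2:79255426-79333114), the chain of VLA-4, was at 145, 174 and 136 TPM under PBS, 192, 152 and 145 under HEK-EV and 125, 119 and 141 under MSC-EV. The PBS and MSC-EV values of Itga4 overlapped, and neither comparison passed (log2 fold change -0.23, adjusted p = 0.309 against PBS, and -0.33, adjusted p = 0.144 against HEK-EV). Itga4 overlaps the annotated gene Cerkl, and whether reads were counted by strand is not given in the sources used here. The ratio of Itga4 to Itgb1 averaged 0.486, 0.496 and 0.487 across PBS, HEK-EV and MSC-EV, in that order.

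Itga6 (16403, chr2:71786886-71858427), a laminin receptor chain and the least abundant of the 10, was the one that was higher. It was at 44.0, 26.7 and 23.4 TPM under PBS, 38.1, 38.3 and 34.4 under HEK-EV and 50.02, 51.7 and 58.7 under MSC-EV. All MSC-EV values lay above all others, and PBS replicate 1 lay apart from the other PBS samples and above the HEK-EV samples. The log2 fold change against PBS was 0.80 (SE 0.191, interval 0.37 to 1.23, adjusted p = 0.0467), and against HEK-EV 0.52 (interval 0.09 to 0.95, adjusted p = 0.139), which did not pass. Itga6 to Itgb1 was 0.142, 0.0814 and 0.0792 under PBS, 0.110, 0.120 and 0.108 under HEK-EV and 0.205, 0.196 and 0.205 under MSC-EV, which is 2.08-fold higher in MSC-EV than in PBS (exact permutation p = 0.1).

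Itga6 is also made by epithelial and endothelial cells and by platelets, so markers of those cells were read beside it, and their part in the result was not tested. The 7 biliary markers summed to 741 to 1710 TPM under PBS, 895 to 1185 under HEK-EV and 1772 to 2360 under MSC-EV, and 3 of the 6 tested were higher in MSC-EV than in PBS, where 1.86% of all genes were. Most of that sum is Spp1, which macrophages make too, while Krt19 was at 0.884 to 1.74 TPM under PBS and 3.82 to 8.50 under MSC-EV, and Epcam at 0.989 to 1.51 and 2.87 to 4.64. Itgb4, the beta chain that epithelial alpha6 pairs with, was at 0.0987 to 0.221 TPM under PBS, 0.125 to 0.212 under HEK-EV and 0.275 to 0.554 under MSC-EV, a level too low to be tested, and the MSC-EV values lay above all others. The 8 endothelial markers summed to 300.4 to 369.5 TPM under PBS, 202 to 434 under HEK-EV and 126 to 247 under MSC-EV, with none called. The 6 platelet markers summed to 138 to 201, 132 to 190.0 and 257 to 353 TPM with 1 of 3 tested higher, of which Pf4 made up 129 to 350 TPM, and Itga2b was at 0.766 to 1.16 TPM under PBS and 0.378 to 0.675 under MSC-EV. Gp9 was at 0 in 8 of 9 libraries. The 8 hepatocyte markers summed to 224 to 294, 183 to 290.4 and 368 to 490.2 TPM, with 2 of 7 tested higher in MSC-EV than in PBS.

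Itgb7 (16421, chr15:102215994-102233405, minus strand), which with alpha4 binds MAdCAM-1 and VCAM-1, was at 108, 164 and 187 TPM under PBS, 141, 138 and 137 under HEK-EV and 88.1, 105 and 93.0 under MSC-EV. The MSC-EV values were below all others, with PBS replicate 1 only just above them. The log2 fold change was -0.64 against PBS (interval -1.02 to -0.27, adjusted p = 0.0590) and -0.54 against HEK-EV (adjusted p = 0.0885), and neither passed. The ratio of Itga4 to Itgb7 averaged 1.04, 1.17 and 1.36 across PBS, HEK-EV and MSC-EV, in that order (exact p = 0.2 for MSC-EV against PBS).

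The alphaV and beta5 chains, which together bind vitronectin and take part in the uptake of dying cells, gave overlapping values in all groups. Itgav (16410, chr2:83722303-83806917) was at 76.3, 68.5 and 50.8 TPM under PBS, 75.9, 64.2 and 60.2 under HEK-EV and 58.0, 68.4 and 69.9 under MSC-EV. Itgb5 (16419, chr16:33829665-33949338) was at 290, 283 and 244 TPM under PBS, 319, 304 and 267 under HEK-EV and 255, 283 and 298 under MSC-EV. For MSC-EV against PBS the log2 fold change was 0.02 for Itgav (interval -0.31 to 0.35, adjusted p = 0.953) and 0.03 for Itgb5 (interval -0.17 to 0.24, adjusted p = 0.867). Differences as large as these bounds remain possible for both genes. Itgav to Itgb5 averaged 0.238, 0.225 and 0.235.

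Read against all genes, MSC-EV against PBS called 2 of the 10 lower and 1 higher, where 3.25% of the 13820 genes tested were called lower and 1.86% higher. The groups did not overlap for 5 of the 10 with MSC-EV lower and 1 with MSC-EV higher, against 14.9% and 11.2% of all genes. MSC-EV against HEK-EV called 4 of the 10 lower and 0 higher, against 4.40% and 1.51% of all genes, and 7 lay lower and 1 higher without overlap, against 17.5% and 12.6%. The median log2 fold change of the 10 was -0.23 against PBS and -0.32 against HEK-EV, beside 0.01 and -0.02 for all genes tested. The split of all calls depended on the scale, since 36.4% of the calls against PBS were higher on TPM, 63.1% on FPKM, 45.6% with median-of-ratios scaling and 44.5% with quantile normalization. Against HEK-EV these shares were 25.6%, 59.5%, 43.9% and 45.5%. On each of those scales the fold changes of Itgam, Itgal, Itgb2, Itgb1 and Itgb7 stayed below 0 and that of Itga6 above 0 in both comparisons.

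HEK-EV against PBS called 0% of the genes tested with limma. An unadjusted p under 0.05 was found for 495 of the 13820 genes, a smaller share than that threshold. Of the 10 integrin genes, Itgax was the one whose groups did not overlap, higher in the HEK-EV samples, where 5.51% of all genes were higher and 2.29% lower without overlap. Its log2 fold change was 0.29 (interval 0.06 to 0.52, unadjusted p = 0.0201, adjusted p = 0.999). The other 9 had log2 fold changes between -0.10 for Itgb7 and 0.28 for Itga6, with Itgam at 0.17 (interval -0.13 to 0.47), all with an adjusted p of 0.999. With 1 library left out Itga6 ranged from 0.10 without PBS replicate 3 to 0.55 without PBS replicate 1, and Itgam from 0.06 without HEK-EV replicate 3 to 0.27 without PBS replicate 3. The median was 0.09, beside 0.03 for all genes.

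Leaving out single libraries changed these calls but not their direction. Over all genes, 706 were called for MSC-EV against PBS, and 5 without PBS replicate 2, 7 without PBS replicate 3, 25 without MSC-EV replicate 1, 59 without MSC-EV replicate 2, 297 without HEK-EV replicate 2, 469 without MSC-EV replicate 3 and 1861 without PBS replicate 1. Itgal lost its call against PBS without PBS replicate 2 (-0.44, adjusted p = 0.0960), PBS replicate 3 (-0.54, 0.0772), MSC-EV replicate 1 (-0.51, 0.0991) and MSC-EV replicate 2 (-0.50, 0.0695). Itgb2 lost it without the same libraries, with log2 fold changes of -0.44, -0.47, -0.42 and -0.54 and adjusted p of 0.102, 0.0797, 0.0991 and 0.0540. The call of Itga6 was lost without any 1 library other than PBS replicate 1, with log2 fold changes of 0.62 to 0.85 and an adjusted p of up to 0.184, and without PBS replicate 1 it was 1.07. Itgam against PBS passed when PBS replicate 1 (-0.62, adjusted p = 0.0245) or HEK-EV replicate 3 (-0.53, adjusted p = 0.0460) was left out, and Itgb7 passed without PBS replicate 1 (-0.87, 0.00152). Against HEK-EV the 4 calls were lost without HEK-EV replicate 1, 2 or 3 or MSC-EV replicate 1 or 2, with an adjusted p of at most 0.143 and log2 fold changes of -0.58 or below for Itgam, -0.49 or below for Itgal, -0.47 or below for Itgb2 and -0.25 or below for Itgb1, and Itga6 (0.52, 0.00898) and Itgb7 (-0.54, 0.00654) passed without PBS replicate 1. With all samples 817 genes were called against HEK-EV, against 1, 0 and 31 without HEK-EV replicates 1, 2 and 3, 0 without MSC-EV replicate 1 or 2 and 1369 without PBS replicate 1. Without the filter on low values, 11 genes in all passed against PBS and 5 against HEK-EV, and 0 of the 10 integrin genes passed in either comparison. With only the 6 samples of a comparison in the fit, 0 of the 10 passed against PBS and 6 against HEK-EV. Relative depth was higher in every MSC-EV sample than in every other sample, so a fit with depth as a covariate cannot separate depth from that group. In that fit the log2 fold change of Itgb7 against PBS was -1.24 (adjusted p = 0.00183). That of Itga6 was 1.43 (adjusted p = 0.00518), and both were more than 1.5 times as large. Against HEK-EV the same fit gave 0.79 for Itga6 (adjusted p = 0.00635) and -0.80 for Itgb7 (adjusted p = 0.00282). Values that had not passed also moved by over 1.5 times, as Itgb1 against PBS was -0.15 with quantile normalization, and Itga4 against PBS was -0.36 when the acinar split was in the fit, -0.39 with array quality weights (adjusted p = 0.0182) and -0.13 without PBS replicate 2. Against HEK-EV the Itga4 value was -0.21 without HEK-EV replicate 1.

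**Figure D4:**
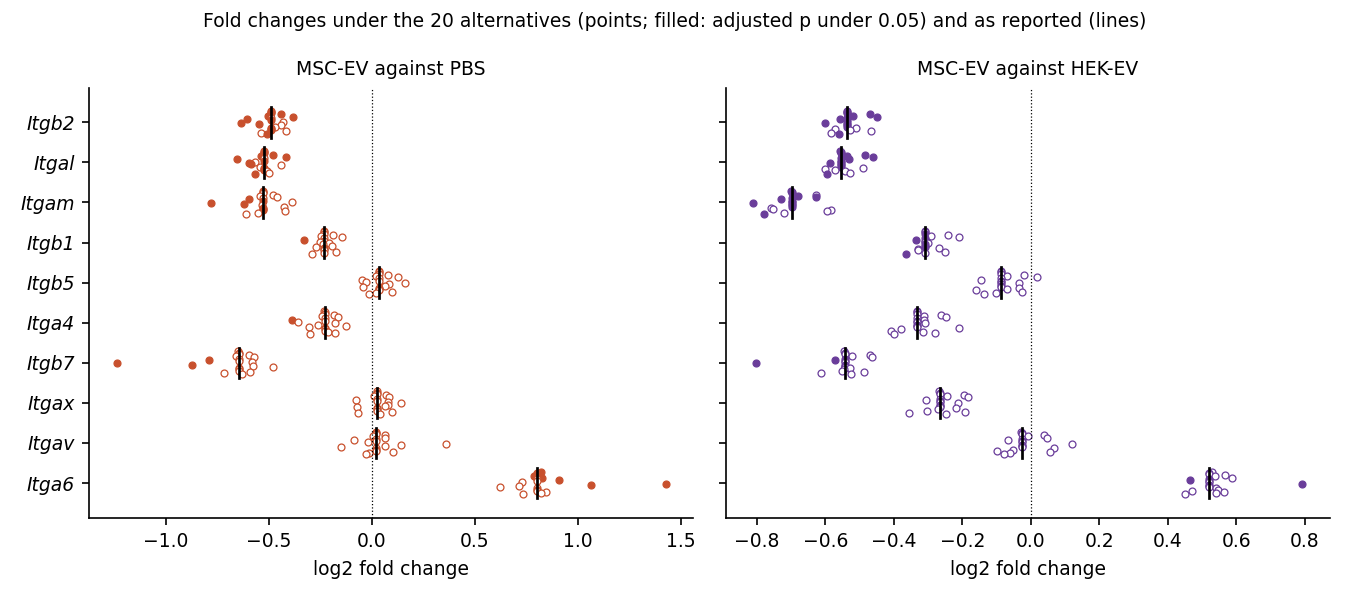
Log2 fold change (x axis) of each gene in MSC-EV against PBS and against HEK-EV as reported (black line) and under each of the 20 alternatives (points, filled where the adjusted p was under 0.05). The points of Itgb2, Itgal, Itgam, Itgb1, Itga4 and Itgb7 stay below 0 in both panels and those of Itga6 above 0, whereas those of Itgav and Itgb5 fall on both sides.

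The 4 libraries with acinar transcripts were set aside in a further reading chosen after the data were seen, which left the 3 PBS samples, HEK-EV replicate 3 and MSC-EV replicate 2 and so gives values with no test. MSC-EV replicate 2 minus the PBS mean was -0.48 for Itgam, 0.21 for Itgax, -0.58 for Itgal, -0.39 for Itgb2, -0.23 for Itgb1, -0.50 for Itgb7 and 0.76 for Itga6 on the log2 scale. MSC-EV replicate 2 minus HEK-EV replicate 3 was -0.89 for Itgam, -0.01 for Itgax, -0.57 for Itgal, -0.46 for Itgb2, -0.27 for Itgb1 and 0.57 for Itga6. With that split as a term in the fit, none of the 10 passed against PBS (Itgal -0.57, adjusted p = 0.0944, Itgb2 -0.43, adjusted p = 0.117, and Itga6 0.73, adjusted p = 0.191).

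Markers of myeloid subsets were read beside the beta2 genes, and their part in the results was not tested. Over all genes 3.25% were called lower and 1.86% higher against PBS, the comparison in which these markers are counted. The 8 Ly6C-high monocyte markers summed to 6021 to 12030 TPM under PBS, 7610 to 9731 under HEK-EV and 3656 to 4565 under MSC-EV, and 4 of 8 were lower in MSC-EV than in PBS. The 6 Ly6C-low monocyte markers summed to 1255 to 1762, 1456 to 1734 and 773 to 899.7 TPM, with 5 of 6 lower. The 6 markers of lipid-associated macrophages summed to 3069 to 5377, 3598 to 3754 and 6148 to 8301 TPM, with 4 of 6 higher. The 8 Kupffer cell markers summed to 2694 to 3265, 1843 to 3820 and 1507 to 2645 TPM, with none called. The 11 neutrophil markers summed to 3117 to 5737, 5125 to 7037 and 3041 to 3844 TPM, with 1 higher. The 9 dendritic cell markers, read beside Itgax, summed to 135 to 179, 116 to 160.2 and 181 to 236 TPM, with none called. No marker of these 6 lists was at 0 in all samples.

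Among the 16 other integrin subunits, 7 were tested, and those left out included Itgae, at 0.436 to 0.930 TPM, and Itgb8. Against PBS 1 of the 7 was lower, Itgb3, which is under the level set for naming and was named after its values were seen (3.61 to 2.07 TPM, log2 fold change -0.59, adjusted p = 0.0251). Against HEK-EV Itgb3 (-0.56, adjusted p = 0.0261) and Itga5, the fibronectin receptor chain (64.2 to 47.1 TPM, -0.44, adjusted p = 0.0342), were lower. The median of the 7 against PBS was -0.27, beside 0.01 for all genes. It was -0.14 without PBS replicate 1, -0.08 without MSC-EV replicate 2 and -0.39 without MSC-EV replicate 3. With depth as a covariate it was 0.04, so its sign changed. Of all genes, 3.25% were called lower against PBS and 4.40% against HEK-EV.

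The ligand list held 29 genes, among them Nrros, whose protein anchors a ligand, and 20 were tested. Against PBS 1 was higher and 2 lower, where 1.86% of all genes were called higher and 3.25% lower. Cdh1, which encodes E-cadherin, a ligand of alphaE beta7, rose from 2.64 to 7.03 TPM (1.14, adjusted p = 0.00973), Icam2, a ligand of LFA-1, fell from 35.9 to 27.4 TPM (-0.38, adjusted p = 0.0244), and Nrros, which anchors latent TGF-beta on myeloid cells, fell from 302 to 248 TPM (-0.28, adjusted p = 0.0300). Against HEK-EV 1 was higher, again Cdh1 (0.81, adjusted p = 0.0205), and 4 were lower, among them Tgfb1 (359 to 281 TPM, -0.35, adjusted p = 0.0215), Nrros (-0.31) and Icam2 (-0.36). In that comparison 1.51% of all genes were called higher and 4.40% lower. Cdh1 is an epithelial gene, and the epithelial markers Krt19 and Epcam, given above beside Itga6, were also higher under MSC-EV than under PBS without overlap, a link that was not tested. The median of the 20 tested was -0.02 against PBS, beside 0.01 for all genes. It was -0.09 without MSC-EV replicate 1 and 0.11 without MSC-EV replicate 2.

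The list of inside-out activation holds genes that switch integrins on and genes known to restrain it, such as Sipa1 and Rap1gap. Of 20 listed, 18 were tested, and 5 were lower and none higher against PBS, and 9 lower against HEK-EV, where 3.25% and 4.40% of all genes tested were called lower. The median of the 18 was -0.27 against PBS, beside 0.01 for all genes. Rasgrp2, the exchange factor that loads Rap1, went from 71.4 to 45.3 TPM (-0.63, adjusted p = 0.0213), Rassf5, the Rap1 effector also known as RAPL, from 119 to 90.2 TPM (-0.39, adjusted p = 0.0268) and Rasgrp4 from 73.6 to 45.9 TPM (-0.66, adjusted p = 0.0273). Apbb1ip, the adaptor RIAM that brings talin to the membrane, was at 343 TPM under HEK-EV and 257 under MSC-EV (-0.41, adjusted p = 0.0215).

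Of 32 genes of outside-in signalling and the adhesion complex, 30 were tested, and 10 were lower and none higher against PBS, and 14 lower against HEK-EV, beside the same 3.25% and 4.40% of all genes. Vcl, which encodes vinculin, a link between integrins and actin, fell from 41.6 to 23.0 TPM (-0.82, adjusted p = 0.0109). Lcp2, which encodes the adaptor SLP-76, fell from 219.8 to 166 TPM (-0.40, adjusted p = 0.0236). Against HEK-EV the kinase gene Fgr was lower (278 to 162 TPM, -0.78, adjusted p = 0.0205), as were Vcl (-0.77) and Lcp2 (-0.46). The median of the 30 against PBS was -0.26, beside 0.01 for all genes.

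Of 16 transcription factors listed for myeloid integrin genes, 14 were tested, and whether they act on these genes here was not tested. Against PBS 4 were lower and none higher, where 3.25% of all genes were called lower and 1.86% higher. The median of the 14 was -0.23, beside 0.01 for all genes. Klf4, a factor of monocyte differentiation, fell from 105 to 45.3 TPM (-1.21, adjusted p = 0.00487), Runx3 from 28.2 to 17.8 TPM (-0.65, adjusted p = 0.0213) and Runx2 from 12.96 to 8.58 TPM (-0.54, adjusted p = 0.0231). Against HEK-EV the same 3 were lower and Cebpa was higher (124 to 206 TPM, 0.73, adjusted p = 0.0374). There 4.40% of all genes were called lower and 1.51% higher. The median of the 14 against HEK-EV was -0.24, beside -0.02 for all genes. In HEK-EV against PBS no gene of the 5 lists passed, though Klf4 was at 67.2 to 70.7 TPM under HEK-EV and 101 to 109 under PBS (log2 fold change -0.60, unadjusted p = 0.000233, adjusted p = 0.944), and 1 factor was called lower without MSC-EV replicate 1. The lists' calls rested on single libraries too, since against PBS the other subunits and the activation list had 0 calls and the ligands 0 lower calls without PBS replicate 2, PBS replicate 3, MSC-EV replicate 1 or MSC-EV replicate 2, the outside-in list at most 1 and the factors at most 2, and against HEK-EV all 5 lists had 0 without any 1 HEK-EV sample or without MSC-EV replicate 1 or 2. On FPKM the activation list had 1 call against PBS and 2 against HEK-EV, and the outside-in list 5 and 4. With the acinar split as a term both of these lists had 0 calls against PBS, as had the other subunits, the ligands had 0 lower and the factors 1. Without the filter on low values all 5 lists had 0 calls in both comparisons. With only the 6 samples compared, the activation list and the other subunits had 0 calls against PBS, the ligands 0 lower, and the outside-in list and the factors 1 each. Over the 20 alternatives Nrros was called against PBS in 7 and Icam2 in 12, and Itgb3 in 11 of the 19 that kept it.

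**Figure D5:**
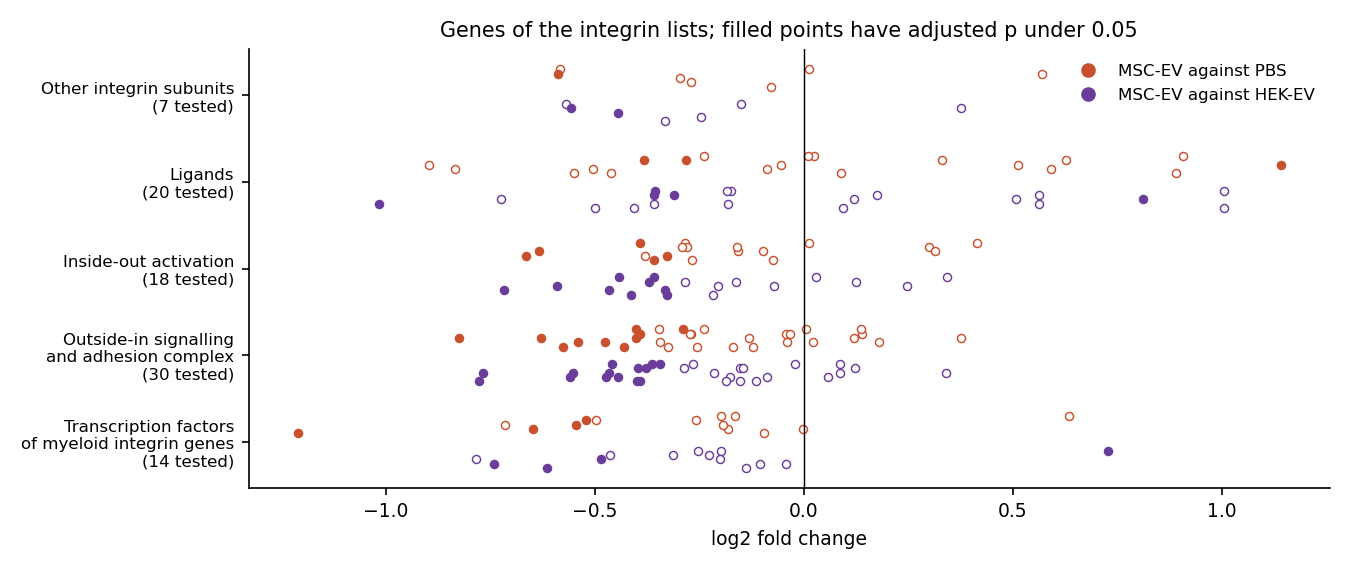
Log2 fold change (x axis) of every tested gene of the 5 integrin lists in MSC-EV against PBS and against HEK-EV, with filled points where the adjusted p was under 0.05. In the activation and outside-in lists all filled points lie below 0, and the factor list has 1 filled point above 0, Cebpa against HEK-EV.

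As a description, the genes whose log2(TPM + 1) was most like a member over the 9 samples, of 9591 compared, were listed by Pearson's r. The samples share their treatment groups, and the MSC-EV samples lie apart, so a high r reflects the groups as well as the samples within them. Closest to Itgam were Preb (0.985), Ampd3 (0.984), Kctd10 (0.979), Creb3 (0.977) and Tspan14 (0.976). Closest to Itgal were Ptk2b (0.994), Acer3 (0.991) and Marchf1 (0.990), and closest to Itgb2 were Ugt1a7c (0.992), Fmnl1 (0.990) and Diaph1 (0.989). The nearest to Itgax was Slc39a10 (0.980), followed by Scd2 (0.957) and Tm7sf3 (0.943), to Itgb7 Prr13 (0.990), Ifitm6 (0.988) and Palm (0.987), and to Itga6 Rab13 (0.991), Galc (0.979) and Ddx1 (0.978). Among the members themselves Itgal and Itgb2 had an r of 0.956, Itgam and Itgb2 0.917, Itgam and Itgax 0.317, Itgav and Itgb5 0.869 and Itgb7 and Itga6 -0.954.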

How the data were processed

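Bulk RNA-seq of liver CD11b+ cells was available for 9 samples, grouped by the treatment in their labels, with replicate numbers from the labels. RNA was extracted with Trizol, treated with DNase and made into libraries with a TruSeq Stranded mRNA kit according to the protocols in the labels. HISAT2 2.1.0, StringTie and mm10 are named in the submitters' processing notes, and the strand setting and annotation version are not given in the sources used here. Each deposited table gave coverage (mean read signal over a gene), FPKM and TPM per gene, per the file headers. TPM as deposited by the authors summed to 1000000 in every sample. FPKM as deposited by the authors was used as an alternative, and the deposited coverage signal only for relative depth. Gene IDs were matched to the RefSeq table of GRCm38.p6 (45679 of 45777, 99.79%), and rows of an ID were summed. No counting interval could be given.

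Genes reaching 1 TPM in 3 or more samples were tested with limma 3.58.1 (R 4.3.3) on log2(TPM + 1), with all 9 samples in 1 fit, eBayes with a trend and Benjamini-Hochberg adjustment over 13820 genes (threshold 0.05, two-sided). Fold changes are on that scale, which understates changes of low genes. Ratios were compared by exact permutation tests (scipy 1.17.1), adjusted over 33 comparisons. The 10 genes, the gene and marker lists and the tests were chosen with earlier results of these data known. From each list up to 3 called genes per direction and comparison with the smallest p were named, if the higher group averaged 5 TPM or more, with the 5 genes most like Itgam, 3 for each of 5 other members, and the chromosome 7 neighbours. One gene that this rule names is not reported here. Krt19, Epcam, Spp1, Pf4, Itga2b, Gp9 and Itgb4 were named after their values were seen. The test was tested on simulated data. The fits were repeated without a filter, with 5 TPM as the minimum, with 0.1 as the pseudocount, on FPKM, after median-of-ratios scaling or quantile normalization, from the 6 samples of a comparison alone, with a replicate block, with array quality weights, with the acinar split (median above 0.3 TPM over 21 genes) as a term, with depth as a covariate, and with each sample left out. A gene under a filter had no value there, and ratios were repeated only on FPKM and with 0.1 as the pseudocount.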

Additional observations from a re-analysis of the deposited data

How the results depend on the processing

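Of the 600 values of the 10 genes under the 20 alternatives, 491 kept their direction and their side of the threshold, 57 lost a call, 18 gained one and 34 changed sign, all of these among values that had not passed. The 66 alternative ratio values moved by less than the spread. They came only from FPKM, which scales all genes of a sample alike, and from the 0.1 pseudocount, which is small beside these levels. Little movement was therefore built in, and these values do not show that the ratios are stable. Of 638 values of Ptprc and the named list genes, 416 kept their side, 219 lost a call and 3 changed sign. Genes called (706 for MSC-EV against PBS, 0 for HEK-EV against PBS, 817 for MSC-EV against HEK-EV) numbered 11, 6 and 5 with no filter, 77 and 1098 for the MSC-EV comparisons with only the 6 samples compared, 4163 and 2081 with array quality weights, 21 with the acinar term against PBS, 1339 and 1449 with depth as a covariate, and, against HEK-EV, 459 on FPKM and 501 with median-of-ratios scaling. Leaving out 1 sample gave 5 to 1861, 0 to 2 and 0 to 1369. With the replicate block 404 and 448 genes were called. Same-numbered samples did not deviate together (9 pairs, correlations of deviations -0.5 to 0.06, 0 over 0.1). The labels give them only a shared number, and whether they also shared a batch cannot be told from these values. Under the block Itgam passed against PBS (adjusted p = 0.0167), and Itga6 (0.0673) and, against HEK-EV, Itgb1 (0.0870) did not. Members called (3, 0 and 4) numbered 0 and 0 with no filter, 0 and 6 with the 6 samples compared, 7 and 6 with weights, 0 against PBS with the acinar term, 5 against PBS with depth, 2 against HEK-EV on FPKM, and 0 to 5 and 0 to 6 with 1 sample left out. Signs changed against PBS for Itgax (-0.0745), Itgav (-0.0880) and Itgb5 (-0.0469) with weights and for Itgav (-0.0165) and Itgb5 (-0.0255) with the acinar term. In HEK-EV against PBS they changed for Itgal (-0.00265) with median-of-ratios scaling, for Itgal (-0.123), Itgb2 (-0.0481), Itga4 (-0.0775), Itgav (-0.0227) and Ptprc (-0.0754) with weights, for Itgal (-0.0146) and Itga4 (-0.0270) with the acinar term and for Itgal (-0.0110), Itgb2 (-0.0334) and Ptprc (-0.0138) with depth. Against HEK-EV they changed for Itgav on FPKM (0.0383), with quantile normalization (0.0488) and with depth (0.121), and for Itgb5 (0.0194) with quantile normalization. With 1 sample left out the ranges were, against PBS, -0.0710 to 0.0982 for Itgax, -0.147 to 0.142 for Itgav and -0.0431 to 0.0974 for Itgb5. In HEK-EV against PBS they were -0.0331 to 0.112 for Itgal, -0.0127 to 0.0951 for Itgb2, -0.0198 to 0.205 for Itga4, -0.120 to 0.169 for Itgav, -0.333 to 0.0610 for Itgb7 and -0.0151 to 0.148 for Ptprc, and against HEK-EV -0.0974 to 0.0682 for Itgav. The cause of these differences was not tested.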
